A study of Mus musculus with 11 samples.

Results

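The 35 genes described here encode subunits of nuclear RNA polymerases I, II and III together with the core initiation and termination factors of polymerase I. They were chosen by name: every gene symbol that begins with Polr1, Polr2 or Polr3, plus Taf1a, Taf1b, Taf1c, Taf1d, Ubtf, Rrn3 and Ttf1. They are 35 of the 46469 gene symbols in the deposited tables, each has 1 locus there, and all 35 passed the filter on low values (at least 1 FPKM in at least 3 libraries), as did 14948 symbols in all. By role, 3 encode subunits of polymerase I alone, 2 encode subunits shared by polymerases I and III, 7 encode polymerase I factors, 5 encode subunits shared by all 3 enzymes, 8 encode polymerase II subunits and 10 encode polymerase III subunits.

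Polymerase I transcribes the precursor of the large ribosomal RNAs in the nucleolus, polymerase II transcribes messenger RNAs and many small nuclear RNAs, and polymerase III transcribes transfer RNAs, 5S ribosomal RNA and other short RNAs. Each enzyme has a catalytic core made of its largest subunits, a set of small subunits that all 3 enzymes contain, and peripheral subunits of its own. Nuclear beta-actin has been described in association with all 3 enzymes, and fibroblasts that lack the beta-actin gene Actb permit a comparison of the messenger RNAs of these subunits with and without it.

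The study sequenced poly(A) RNA from cultures of embryonic mouse fibroblasts. There were 11 libraries, with 4 of Actb +/+ cells (WT), 4 of Actb +/- cells (Het) and 3 of Actb -/- cells (KO, replicates 1, 3 and 4). All cells came from BALB/c embryos of 10.5 days and were harvested at 70% confluence in high-glucose medium with fetal bovine serum. Replicates carry numbers, with no word on separate embryos or cultures, so a p-value measures only the spread between these libraries, which may be technical. The targeted gene followed the labels: Actb lay between 1081 and 1532 FPKM in WT, between 818.5 and 872 in Het and between 45.0 and 47.3 in KO.

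The groups also differed in markers of other properties of the cells. Xist, the RNA expressed from the inactive X chromosome of female cells, was 48.9 ± 3.45 FPKM (SD, n = 4) in Het against 0.0503 ± 0.0105 (SD, n = 4) in WT and 0.0449 ± 0.0109 (SD, n = 3) in KO, so genotype and the embryo of origin cannot be told apart. Relative depth, read from the value of 1 fragment in low genes, ran from 60.7% (WT replicate 3) to 125% (WT replicate 4) of that of WT replicate 1, and the absolute depth is unknown. All 8 fibroblast markers reached 1 FPKM somewhere, with a summed level of 1316 to 1753 in WT, 2082 to 2381 in Het and 2890 to 3571 in KO, though Thy1 was at a mean of 0.0248 FPKM in WT. Members of that list did not all follow the sum: Fbn1 had means of 26.5, 23.5 and 16.8 FPKM in WT, Het and KO, and Col1a2 of 6.86, 193 and 11.5. None of 6 endothelial markers reached 1 FPKM (Emcn and Cldn5 at 0 throughout), and of the blood markers Ptprc and Hbb-bt were at 0 and only Cd68 reached it. Of the epithelial markers only Krt18 reached 1 FPKM, with a summed level of the list of 1.93 to 2.68 in WT, 5.36 to 9.05 in Het and 0.756 to 0.902 in KO; of 5 neural markers 2 did, with sums of 10.4 to 19.5, 22.2 to 29.4 and 23.2 to 25.5. These were Tubb3 with means of 10.9, 24.6 and 13.7 and Map2 with 3.26, 0.596 and 10.6 in WT, Het and KO. The summed level of 8 proliferation markers was 980.1 to 1079 in WT, 861 to 904.5 in Het and 803 to 827 in KO. This sum falls in the same order as the polymerase III sum given below. The means of Mki67, Top2a, Mcm5 and Cdk1 followed that order. Mcm2 did not, with means of 63.5, 54.4 and 81.5 FPKM in WT, Het and KO, nor did Pcna, with 180.2, 181.7 and 156.6. Ccnb1 and Ccna2 were lowest in Het. The part of these marker lists in any result was not tested. In RNA from a whole culture, fewer cells of a type and less RNA per cell cannot be told apart.

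Levels below are FPKM, that is mapped fragments corrected for transcript length and for library size, scaled between libraries. Levels of different genes can be set side by side only roughly, since the dependence on GC content and the overlapping loci described below are not corrected. Differences are on the log2(FPKM + 1) scale, and a gene is called changed where limma's adjusted p is under 0.05.

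Most of the polymerase genes that changed in either mutant were lower than in WT. Between KO and WT, 16 of 35 members were called (45.7%), against 47.1% of all genes tested, so the share was near the background. Direction was uneven: 13 members were lower (37.1%, against 23.8% of all genes) and 3 were higher (8.57%, against 23.3%). Between Het and WT, 19 members were called (54.3%, against 43.8%), of which 17 were lower (48.6%, against 22.1%) and 2 were higher (5.71%, against 21.7%). The median log2 difference over the 35 members was -0.15 in KO and -0.22 in Het, and over all genes it was 0.01 in both. The libraries did not overlap between KO and WT for 17 members (48.6%, against 46.4% of all genes), between Het and WT for 19 (54.3%, against 39.5%) and between KO and Het for 16 (45.7%, against 54%). No called member changed by 2-fold or more, and the largest differences were those of Polr3gl in KO (-0.80) and Polr3g in Het (-0.66). Both comparisons use the same WT libraries. The small group of higher members depends on the fit: in KO it fell from 3 to 0 without scaling between libraries (18 lower), where the median of all genes was -0.08, and in Het it rose from 2 to 7 (19 lower) after a correction for transcript GC content.

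**Figure D1:**
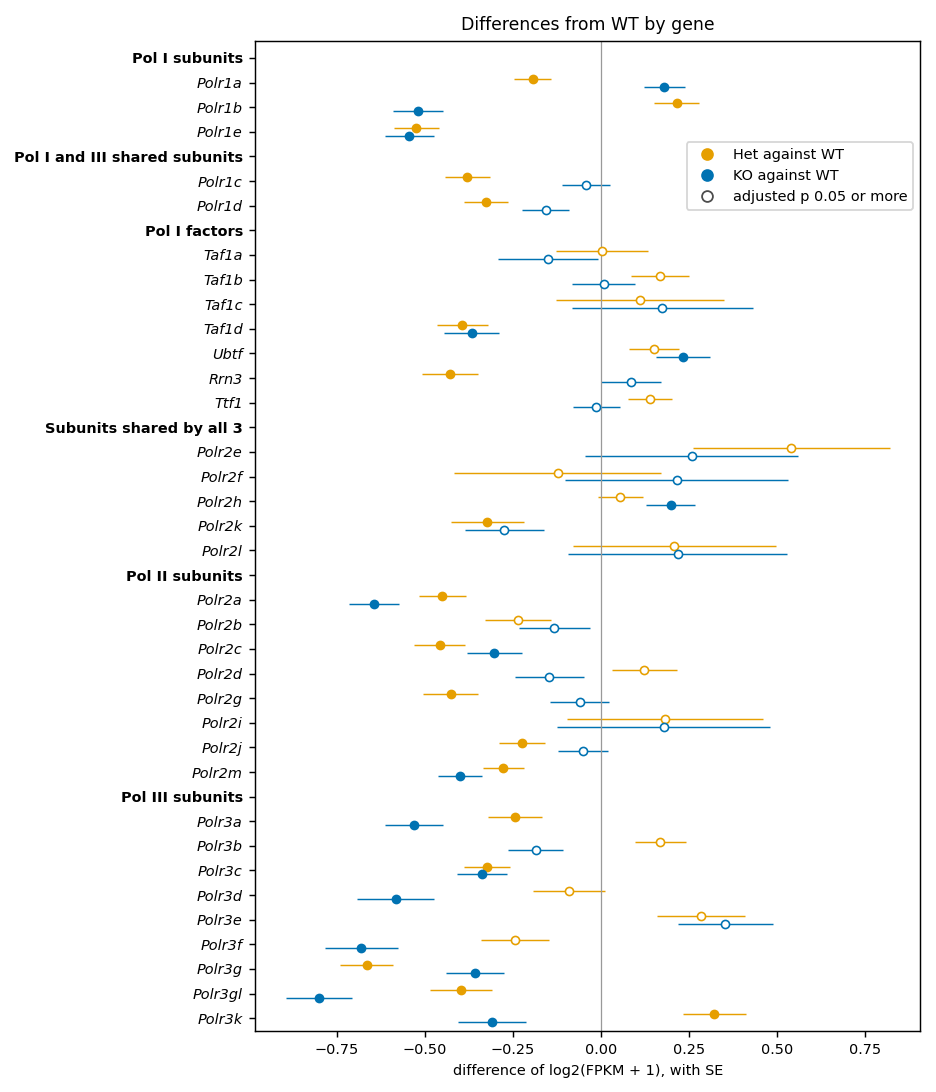
Log2 difference from WT on the log2(FPKM + 1) scale (x axis) for 34 of the 35 genes (y axis, ordered by role), with points for KO and Het and bars of 1 standard error; filled points passed an adjusted p under 0.05 and open points did not. Most filled points lie left of 0, the farthest being Polr3gl in KO at -0.80 and Polr3g in Het at -0.66.

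KO and Het also differed from each other, at a share of members near the background. Between them 15 members were called (42.9%, against 44.2% of all genes). Of the members, 6 were higher in KO (17.1%, against 22% of all genes) and 9 lower (25.7%, against 22.2%). Among the higher were Polr1a, Polr1c, Rrn3, Polr2g and Polr3g, and the 9 lower were Polr1b, Polr2a, Polr2d, Polr3a, Polr3b, Polr3d, Polr3f, Polr3gl and Polr3k. Not called in any comparison with WT, between KO and Het, or of Het with their midpoint were 10 members: Taf1a, Taf1b, Taf1c, Ttf1, Polr2b, Polr2e, Polr2f, Polr2i, Polr2l and Polr3e. Some of them depend on the fit. After the correction for transcript GC content, Polr2b, Polr2e, Taf1b and Ttf1 were called between Het and WT, and Polr3e between KO and WT.

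Start sites are shown for 4 genes, chosen after their values were seen because they follow different paths across the genotypes. Polr2a was lower in both mutants, Polr1b was higher in Het and lower in KO, and Polr3g and Polr3gl encode alternative forms of the same subunit. The sequences are the 250 bases before the RefSeq start (GRCm38.p6), 5′ to 3′ on the gene's strand, at chr2:129100746-129100995 (plus), chr11:69758634-69758883 (minus), chr13:81711014-81711263 (minus) and chr3:96594182-96594431 (minus). Capitals mark exact matches, on either strand, to the GC box GGGCGG, the ETS core CCGGAAG, the E-box CACGTG, the TATA box TATAAA or the CArG box.
Polr1b: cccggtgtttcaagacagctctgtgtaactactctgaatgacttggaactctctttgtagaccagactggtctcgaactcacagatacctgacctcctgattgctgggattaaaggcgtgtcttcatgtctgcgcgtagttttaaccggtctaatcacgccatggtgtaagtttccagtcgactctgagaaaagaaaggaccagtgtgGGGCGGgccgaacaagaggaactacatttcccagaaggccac
Polr2a: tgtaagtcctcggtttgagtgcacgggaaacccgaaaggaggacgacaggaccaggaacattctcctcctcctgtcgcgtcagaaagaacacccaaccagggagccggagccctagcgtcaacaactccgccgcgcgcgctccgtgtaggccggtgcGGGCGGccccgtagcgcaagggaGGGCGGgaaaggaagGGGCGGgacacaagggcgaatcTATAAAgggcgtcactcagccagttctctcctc
Polr3g: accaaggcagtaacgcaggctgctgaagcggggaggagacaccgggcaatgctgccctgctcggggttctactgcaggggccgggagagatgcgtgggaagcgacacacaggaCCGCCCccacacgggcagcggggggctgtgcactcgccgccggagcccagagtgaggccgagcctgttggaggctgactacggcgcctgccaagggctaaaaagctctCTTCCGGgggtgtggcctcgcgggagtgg
Polr3gl: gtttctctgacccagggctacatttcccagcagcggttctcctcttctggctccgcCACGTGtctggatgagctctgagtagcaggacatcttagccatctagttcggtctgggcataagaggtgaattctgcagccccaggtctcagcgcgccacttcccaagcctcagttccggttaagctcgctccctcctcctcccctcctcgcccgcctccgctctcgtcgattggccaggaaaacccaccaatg
No matches overlap in these windows. The Polr2a window holds 3 GC boxes, which begin 93, 70 and 55 bases before the start, and a TATA box 33 to 28 bases before it. The Polr1b window holds 1 GC box, 42 to 37 bases before the start. The Polr3g window holds a GC box 137 to 132 bases and an ETS core 29 to 23 bases before the start. The Polr3gl window holds neither, and has an E-box 194 to 189 bases before the start. In the deposited tables the genes span chr2:129100970-129128060 (Polr1b), chr11:69733997-69758633 (Polr2a), chr13:81673837-81711013 (Polr3g) and chr3:96577872-96594181 (Polr3gl), so that the last bases of the Polr1b window lie inside the locus as the authors annotated it.

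RefSeq windows were found for 29 of the 35 genes, 38 windows in all, since some genes have several starts whose windows can overlap. Polr2d, Polr2g, Polr2k, Polr3a and Polr3d were among those with none. The GC box was in 57.9% of these windows (17 of 29 genes), against 32.7% of all 32851 windows of the same length. Ubtf alone gives 5 of the 22 member windows with a GC box, and the member windows are richer in GC, with a median of 58.4% against 52.4% over all windows. The ETS core was in 23.7% against 6.91%, the E-box in 7.90% against 6.02% and the TATA box in 5.26% against 12.4%. The CArG box, the site of serum response factor, was in 0 of 38 member windows and in 1.47% of all windows. These are letter matches and no binding was measured.

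The 3 genes of polymerase I alone that carry a Polr1 symbol moved in 3 different ways. All 3 were called in both mutants (100%, against 43.8% of all genes in Het and 47.1% in KO). Polymerase I subunits with other symbols are given further below. Polr1a and Polr1b encode the largest and the next largest subunit, which together form the active site, and Polr1e encodes a peripheral subunit. Polr1a measured 19.8, 21.9, 21.4 and 22.3 FPKM in the WT libraries, 18.5, 18, 19.5 and 18.2 in Het and 23.7, 24.6 and 24.6 in KO. Het lay below every WT library and KO above every WT library. The difference from WT was -0.19 (SE 0.0528, adjusted p = 0.0123) in Het and 0.18 (SE 0.0571, adjusted p = 0.0233) in KO, and KO exceeded Het by 0.37 (SE 0.0571, adjusted p = 0.000318). Polr1b measured 8.06, 7.80, 8.401 and 8.45 FPKM in the WT libraries, 10.3, 9.87, 9.62 and 8.86 in Het and 5.83, 5.29 and 5.11 in KO. Here the order was reversed, with Het above and KO below every WT library. Polr1b rose by 0.21 (SE 0.0650, adjusted p = 0.0203) in Het and fell by 0.52 (SE 0.0702, adjusted p = 0.000123) in KO, and KO was lower than Het by a log2 difference of -0.73 (SE 0.0702, adjusted p = 1.09e-05). Polr1e measured 8.50, 8.30, 8.10 and 7.36 FPKM in the WT libraries, 5.34, 5.02, 5.56 and 5.28 in Het and 5.31, 4.90 and 5.44 in KO. Both mutants lay below WT and overlapped each other: Polr1e fell by 0.52 (SE 0.0647, adjusted p = 8.10e-05) in Het and by 0.54 (SE 0.0699, adjusted p = 8.60e-05) in KO. The KO call of Polr1a was lost without KO replicate 3 or 4, without scaling and with only WT and KO in the fit. The Het call of Polr1b was lost without WT replicate 2 or Het replicate 1 or 2 and under quantile normalization.

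The subunits shared by polymerases I and III were lower in Het. Polr1c and Polr1d encode the pair of subunits around which both enzymes assemble. Polr1c measured 55.3, 62.8, 65.7 and 60.7 FPKM in the WT libraries, 51.02, 46.8, 44.3 and 44.9 in Het and 61.01, 58.9 and 57.8 in KO. KO overlapped WT and lay above every Het library. Polr1c fell by 0.38 (SE 0.0642, adjusted p = 0.000744) in Het, while its difference from WT in KO was -0.04 (SE 0.0694, adjusted p = 0.650). Polr1d measured 96.1, 88.5, 98.2 and 92.5 FPKM in the WT libraries, 76.6, 71.3, 72.3 and 78.6 in Het and 76.7, 84.7 and 91.1 in KO. Het lay below WT, and KO overlapped both. Polr1d fell by 0.33 (SE 0.0628, adjusted p = 0.00171) in Het, and its difference in KO was -0.16 (SE 0.0678, adjusted p = 0.0795).

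Of the 7 polymerase I factors, Rrn3 and Taf1d were called lower in Het, and Ubtf higher and Taf1d lower in KO. That is 28.6% called in each comparison, below the 43.8% of all genes in Het and 47.1% in KO. Rrn3 bridges polymerase I to the promoter-bound factors and is a target of growth signalling. Rrn3 measured 33.3, 29.6, 30.6 and 27.04 FPKM in the WT libraries, 23.8, 23, 20.5 and 21.2 in Het and 34.9, 32 and 29.2 in KO. All Het libraries were below all WT and KO libraries, which overlapped. Rrn3 fell by 0.43 (SE 0.0797, adjusted p = 0.00136) in Het, and KO exceeded Het by 0.51 (SE 0.0861, adjusted p = 0.000602). Ubtf encodes the HMG-box protein that binds along active ribosomal DNA. Ubtf measured 42.9, 51.3, 44.8 and 53.1 FPKM in the WT libraries, 50.6, 54.95, 52.8 and 54.9 in Het and 54.5, 56.6 and 58.2 in KO. KO lay above WT and Het overlapped both. Ubtf rose by 0.23 (SE 0.0764, adjusted p = 0.0277) in KO, a call that was lost without WT replicate 1 or 3, without KO replicate 3 or 4, without scaling, and with only WT and KO in the fit. Its difference in Het was 0.15 (SE 0.0707, adjusted p = 0.107).

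Taf1a, Taf1b, Taf1c and Taf1d encode subunits of selectivity factor SL1, which places polymerase I at its promoter. Taf1d measured 59.2, 54.5, 59.7 and 50.9 FPKM in the WT libraries, 45.1, 45.9, 37.6 and 41.3 in Het and 42.9, 43.96 and 42.7 in KO. Both mutants lay below WT, and Taf1d fell by 0.39 (SE 0.0732, adjusted p = 0.00136) in Het and by 0.37 (SE 0.0791, adjusted p = 0.00288) in KO. The Taf1d locus overlaps those of 4931406C07Rik and Cep295. In all, 12 of the 35 loci overlap another, 8 of them a locus of at least 1 FPKM, and their values are uncertain where reads could be assigned to either; these include Taf1c with Rps13-ps4 (mean 38.2 FPKM), Polr2b with Igfbp7 (146 FPKM), Polr1d with Rps10-ps4 (1.44 FPKM) and Polr1e with Fbxo10 (4.84 FPKM). Ttf1, the factor that stops polymerase I at the end of the ribosomal RNA gene, lay between 6.98 and 8.23 FPKM in WT, 7.99 and 8.51 in Het and 7.25 and 7.49 in KO, and was not called. Nor were the other 3 SL1 subunits: their differences from WT were -0.15, 0.01 and 0.17 in KO and 0.00, 0.17 and 0.11 in Het for Taf1a, Taf1b and Taf1c. Under GC correction Ttf1 (0.17) and Taf1b (0.21) were called higher in Het (limma adjusted p = 0.00825 and 0.0339).

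**Figure D2:**
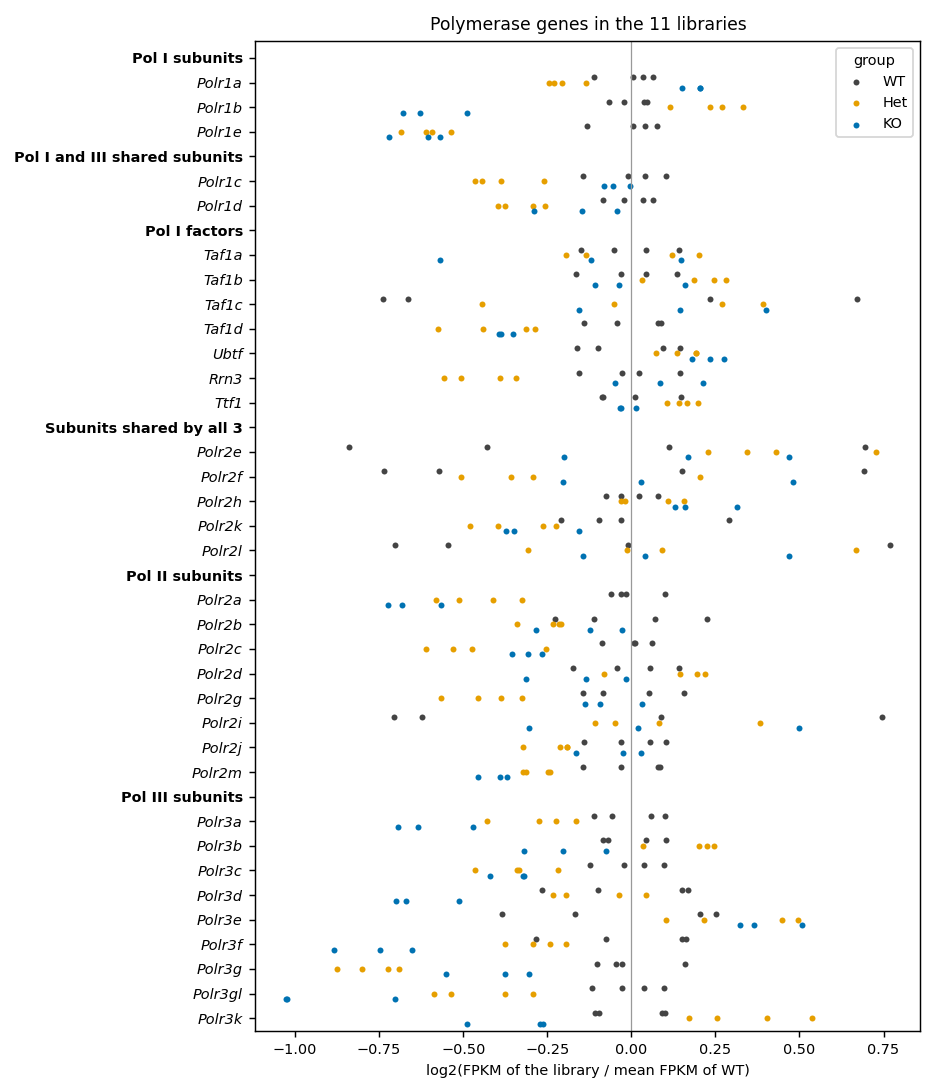
Log2 of the FPKM in each of the 11 libraries over the mean FPKM of the WT libraries (x axis), with 34 of the 35 genes on the y axis ordered by role and points coloured by group. Points of Polr1b separate in the order KO, WT, Het, while those of Polr2e and Polr2f spread widely within WT.

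The polymerase II genes that changed relative to WT were all lower: 3 of 8 in KO (37.5% called, against 47.1% of all genes) and 5 of 8 in Het (62.5%, against 43.8%). The largest subunit, Polr2a, carries the C-terminal repeat domain whose phosphorylation marks the transcription cycle. Polr2a measured 77.9, 77.1, 84.4 and 75.6 FPKM in the WT libraries, 55.2, 59.2, 62.9 and 52.7 in Het and 53.2, 47.7 and 49.1 in KO. The lowest WT library was above every mutant library, and KO and Het overlapped slightly. Polr2a fell by 0.45 (SE 0.0659, adjusted p = 0.000274) in Het and by 0.65 (SE 0.0712, adjusted p = 2.83e-05) in KO. KO was lower than Het by a log2 difference of -0.20 (SE 0.0712, adjusted p = 0.0454), a call that was lost without any of WT replicate 2, Het replicates 1 to 3 or KO replicate 3 or 4, without the filter, without the variance trend and with only KO and Het in the fit. Polr2b, which encodes the other large catalytic subunit, lay between 53.0 and 72.6 FPKM in WT, 49.1 and 53.7 in Het and 51.0 and 61.0 in KO. In the main fit it was not called (limma adjusted p = 0.0643 in Het and 0.313 in KO). It was called lower in Het without scaling, without WT replicate 4 and under GC correction (-0.19, limma adjusted p = 0.00956).

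Polr2c and Polr2j encode the pair of subunits on which polymerase II assembles. Polr2c measured 57.6, 63.9, 61.6 and 61.6 FPKM in the WT libraries, 42.4, 44.1, 40.02 and 51.3 in Het and 47.8, 49.5 and 50.9 in KO. All mutant libraries were below all WT libraries, and Polr2c fell by 0.46 (SE 0.0722, adjusted p = 0.000463) in Het and by 0.30 (SE 0.0780, adjusted p = 0.00829) in KO. The Polr2c locus overlaps that of Dok4. Polr2j fell in Het by 0.22 (SE 0.0663, adjusted p = 0.0182), from 116 to 137.5 FPKM in WT to 102 to 112 in Het, a call that was lost without WT replicate 3 or Het replicate 3. In KO it lay between 114 and 130.5 FPKM and overlapped WT.

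Polr2d and Polr2g encode the detachable stalk of the enzyme. Polr2g measured 163, 138, 152 and 133 FPKM in the WT libraries, 112, 117, 98.9 and 107 in Het and 149.8, 133 and 137 in KO. Het was below every other library, and KO lay within the WT range. Polr2g fell by 0.43 (SE 0.0779, adjusted p = 0.00120) in Het, and its difference in KO was -0.06 (SE 0.0841, adjusted p = 0.591). Its stalk partner Polr2d lay between 48.8 and 60.8 FPKM in WT, 52.1 and 64.1 in Het and 44.4 and 54.5 in KO, with a difference in Het of 0.12 (SE 0.0918, adjusted p = 0.309). Polr2d was called only between KO and Het (-0.27 (SE 0.0992, adjusted p = 0.0473)), where the groups overlapped and the call was lost without any of WT replicates 1 and 2, Het replicates 1, 2 and 4 or KO replicates 3 and 4, without the filter and without the variance trend. Polr2m encodes a protein that associates with part of the polymerase II pool. Polr2m measured 191, 176, 189.8 and 163 FPKM in the WT libraries, 151, 152, 145 and 144 in Het and 139, 137 and 131 in KO. KO was lowest, Het intermediate and WT highest, with no overlap. Polr2m fell by 0.28 (SE 0.0584, adjusted p = 0.00291) in Het and by 0.40 (SE 0.0630, adjusted p = 0.000373) in KO, and the difference between KO and Het was -0.12 (SE 0.0630, adjusted p = 0.139).

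The sums of FPKM over each role summarise these levels without a test, and abundant genes dominate them. The polymerase II subunits summed to 726 ± 32.1 (SD, n = 4) in WT, 596 ± 20.3 (SD, n = 4) in Het and 621 ± 26.6 (SD, n = 3) in KO. The mutants overlapped each other and lay below WT. The polymerase III subunits summed to 144 ± 2.36 (SD, n = 4), 126 ± 3.20 (SD, n = 4) and 109.8 ± 2.42 (SD, n = 3), and no group overlapped another. Polr1a, Polr1b and Polr1e, the polymerase I subunits under the naming rule, summed to 36.3 to 38.1 in WT, 32.3 to 34.6 in Het and 34.8 to 35.1 in KO. These sums are not levels of whole enzymes, since subunits with other symbols are left out. Among those, Znrd1 of polymerase I had a WT mean of 48.7 FPKM and Crcp of polymerase III one of 36.5.

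**Figure D3:**
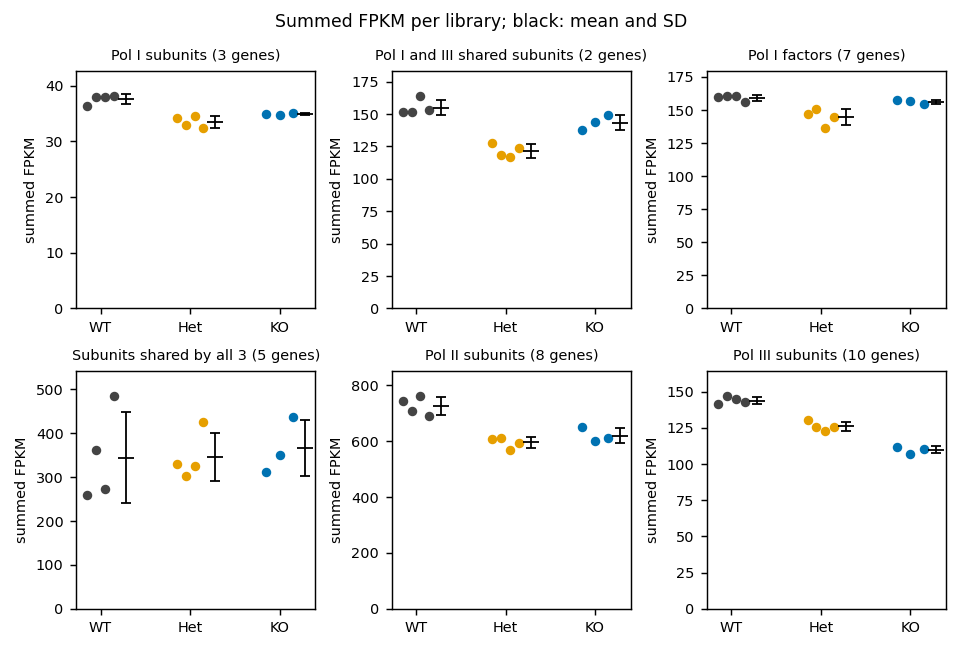
Summed FPKM of the genes of each role (y axes, starting at 0) in each library, by genotype (x axis), with a point for each library and the group mean and SD in black. The polymerase III sum steps down from 144 in WT to 126 in Het and 109.8 in KO, and the sum of the subunits shared by all 3 enzymes overlaps between groups.

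The subunits shared by all 3 enzymes showed the widest spread within groups. Polr2e measured 47.3, 91.5, 62.8 and 137 FPKM in the WT libraries, and Polr2f measured 87.1, 161, 97.5 and 234. The same 4 libraries gave 7.32, 11.8, 8.16 and 20.3 FPKM for Polr2l, another shared subunit. WT replicate 4 was the highest and WT replicate 1 the lowest for each of them. Polr2i, a small polymerase II subunit that acts in proofreading, measured 8.93, 15.5, 9.46 and 24.4 FPKM, and Taf1c measured 1.95, 3.84, 2.06 and 5.20. None of these 5 genes was called in the fit of all libraries without GC correction: the standard errors of their differences from WT were 0.239 to 0.317, against 0.0528 for Polr1a in Het.

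Part of this spread moved with base composition. After GC correction the within-group SD (log2 scale) fell from 0.454 to 0.218 for Polr2e and from 0.476 to 0.202 for Polr2f. For Taf1c it fell from 0.379 to 0.117 and for Polr2i from 0.4505 to 0.321. Polr2l, with a transcript GC content of 51.7%, changed little (0.465 to 0.451). Across the 35 genes, the difference between WT replicates 4 and 1 had a Pearson correlation of 0.715 with transcript GC content, and across the 13779 genes with a GC value it was 0.586. Genes share their 2 libraries here and are not independent, so these are descriptions. The difference between KO and WT had a correlation of 0.334 with GC over the 35 genes, and that between Het and WT of 0.153. After GC correction, 20 members were called in KO (4 higher, 16 lower) and 26 in Het, while the share of all genes called also rose, to 58.3% in KO and 56.3% in Het. In KO that correction lost the call of Polr2h and added calls that include Polr1d, Polr2k, Polr3e and Rrn3. In Het it added a higher call of Polr2e (0.45, SE 0.135, adjusted p = 0.0153), which was also called without WT replicate 4.

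**Figure D4:**
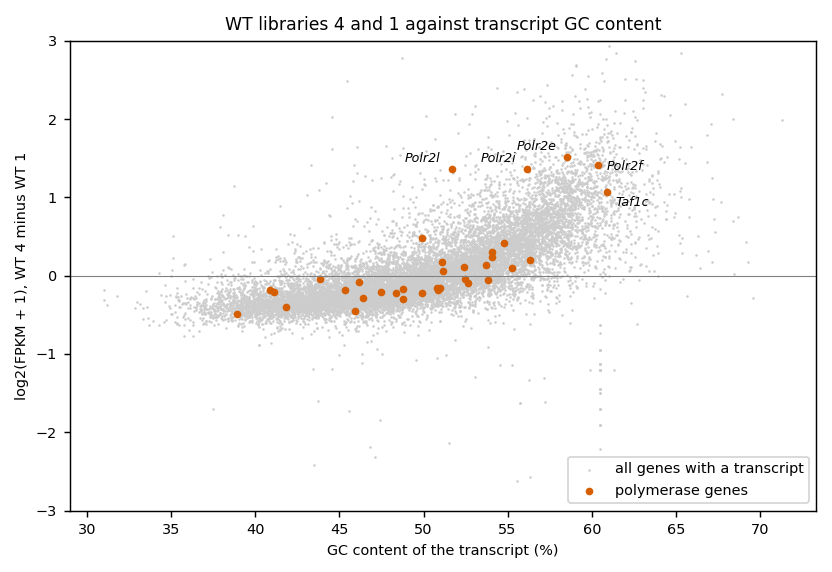
Difference between WT replicates 4 and 1 in log2(FPKM + 1) (y axis) against the GC content of the gene's transcript in percent (x axis), for 13779 genes (grey) and the 35 polymerase genes (orange). The difference increases with GC content, and Polr2e, Polr2f, Polr2i, Polr2l and Taf1c are the members farthest above 0.

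Of the shared subunits with a smaller spread, Polr2h was called in KO and Polr2k in Het. Each is 20% of the 5 shared subunits, below the 47.1% of all genes in KO and 43.8% in Het. Polr2h measured 45.4, 43.8, 47.2 and 42.4 FPKM in the WT libraries, 48.2, 43.8, 44.1 and 49.9 in Het and 48.9, 49.9 and 55.6 in KO. KO lay above WT by a margin smaller than the WT range. Polr2h rose by 0.20 (SE 0.0686, adjusted p = 0.0350) in KO, a call that was lost without WT replicate 2 or 4, without KO replicate 3 or 4, without scaling, under GC correction and with only WT and KO in the fit. Polr2k measured 71.4, 54.7, 57.2 and 50.6 FPKM in the WT libraries, 44.4, 48.7, 41.9 and 50.04 in Het and 52.5, 45.1 and 45.9 in KO. The lowest WT library was just above the highest Het library, and WT replicate 1 was far above the others. Polr2k fell by 0.32 (SE 0.104, adjusted p = 0.0267) in Het, a call lost without WT replicate 3, without Het replicate 1 or 3 and without the filter, and its difference in KO was -0.27 (SE 0.112, adjusted p = 0.0653). The Polr2k locus overlaps that of Spag1.

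Of the 10 polymerase III subunits, 7 fell in KO and none rose (70% called, against 47.1% of all genes, with 23.8% lower). In Het 5 fell and Polr3k rose (60% called, against 43.8%, with 22.1% lower). The median difference over the 10 genes was -0.35 in KO and -0.24 in Het. Polr3a and Polr3b encode the large catalytic subunits. Polr3a measured 10.3, 10.7, 9.55 and 9.19 FPKM in the WT libraries, 8.86, 8.21, 8.50 and 7.37 in Het and 7.17, 6.41 and 6.14 in KO. The groups stood in the order WT, Het, KO with no overlap. Polr3a fell by 0.24 (SE 0.0759, adjusted p = 0.0231) in Het and by 0.53 (SE 0.0820, adjusted p = 0.000321) in KO. The Het call was lost without WT replicate 1 or 2 or Het replicate 2 or 4. The call of Polr3a between KO and Het was lost without KO replicate 3 or 4. Polr3b followed another order: it lay between 14.9 and 17.0 FPKM in WT, 16.2 and 18.8 in Het and 12.7 and 15.04 in KO, and it was called only between KO and Het (-0.35 (SE 0.0779, adjusted p = 0.00351)) and between Het and the midpoint.

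Polr3c, Polr3f and the alternative subunits Polr3g and Polr3gl form the subcomplex that joins polymerase III to its initiation factor. Polr3f measured 14.2, 12.2, 14.3 and 10.5 FPKM in the WT libraries, 10.8, 11.2, 9.87 and 10.5 in Het and 7.63, 6.93 and 8.14 in KO. KO lay below all other libraries, and Het overlapped WT. Polr3f fell by 0.68 (SE 0.103, adjusted p = 0.000286) in KO, and its difference in Het was -0.24 (SE 0.0957, adjusted p = 0.0601). Polr3c fell in both mutants, from 24.6 to 28.6 FPKM in WT to 19.4 to 23.0 in Het and 19.97 to 21.4 in KO, by 0.32 (SE 0.0657, adjusted p = 0.00235) and 0.34 (SE 0.0710, adjusted p = 0.00250).

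Polr3d and Polr3e encode the partner subunits that act in initiation and termination. Polr3d measured 17.8, 23.8, 19.98 and 24.1 FPKM in the WT libraries, 18.2, 18.7, 20.9 and 22.1 in Het and 13.2, 13.5 and 15.02 in KO. KO was below every WT and Het library. Polr3d fell by 0.58 (SE 0.110, adjusted p = 0.00125) in KO, and its difference in Het was -0.09 (SE 0.102, adjusted p = 0.511). Its partner Polr3e lay between 3.70 and 5.75 FPKM in WT, 5.19 and 6.81 in Het and 6.04 and 6.87 in KO. KO was above WT without overlap, with a difference of 0.35 (SE 0.135, adjusted p = 0.0517), which missed the threshold.

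Polr3k encodes the subunit that cleaves RNA in a stalled enzyme. Polr3k rose in Het by 0.32 (SE 0.0899, adjusted p = 0.0136), from 11.4 to 13.2 FPKM in WT to 13.9 to 17.9. In KO it fell to 8.77 to 10.3 FPKM, by 0.31 (SE 0.0971, adjusted p = 0.0225), a call lost without WT replicate 1 or 3 or KO replicate 1.

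The alternative subunits Polr3g and Polr3gl, whose promoters are printed above, fell by different amounts. Polr3g is known as the form of stem cells and dividing cells, and Polr3gl as the form found in most tissues. Polr3g measured 8.11, 8.23, 9.36 and 7.81 FPKM in the WT libraries, 5.19, 5.07, 4.81 and 4.57 in Het and 6.79, 6.45 and 5.72 in KO. Het was lowest, KO intermediate and WT highest, with no overlap. Polr3g fell by 0.66 (SE 0.0753, adjusted p = 4.30e-05) in Het and by 0.36 (SE 0.0814, adjusted p = 0.00400) in KO, and KO exceeded Het by 0.31 (SE 0.0814, adjusted p = 0.00998). Polr3gl measured 9.58, 9.02, 10.04 and 10.5 FPKM in the WT libraries, 7.99, 6.52, 6.75 and 7.54 in Het and 4.79, 4.81 and 6.01 in KO. For this gene KO was lowest and Het intermediate. Polr3gl fell by 0.40 (SE 0.0874, adjusted p = 0.00376) in Het and by 0.80 (SE 0.0944, adjusted p = 4.59e-05) in KO.

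The balance between them was therefore different in the 2 mutants. The log2 ratio of Polr3g to Polr3gl, with 1 FPKM added to each, was -0.20 ± 0.13 (SD, n = 4) in WT, -0.47 ± 0.14 (SD, n = 4) in Het and 0.24 ± 0.26 (SD, n = 3) in KO. In KO it was 0.43 and 0.36 in replicates 1 and 3 and -0.06 in replicate 4, just above the highest WT library at -0.09. Replicate 4 also had the lowest ratio in WT (-0.38) and in Het (-0.62). The transcripts of Polr3g and Polr3gl differ in GC content (43.8% and 52.4%), and whether library differences tied to GC content moved the ratio was not tested. KO exceeded WT by 0.44 and Het by 0.71, each with p = 0.0286 (two-sided exact permutation test, adjusted p = 0.0429 over 3 comparisons), the smallest p that 3 against 4 libraries allow. Het was below WT by a log2 ratio of -0.27 (exact permutation p = 0.0571, n = 4 and 4). For the 2 comparisons with KO, leaving out any library of either group leaves too few for the test to reach 0.05.

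**Figure D5:**
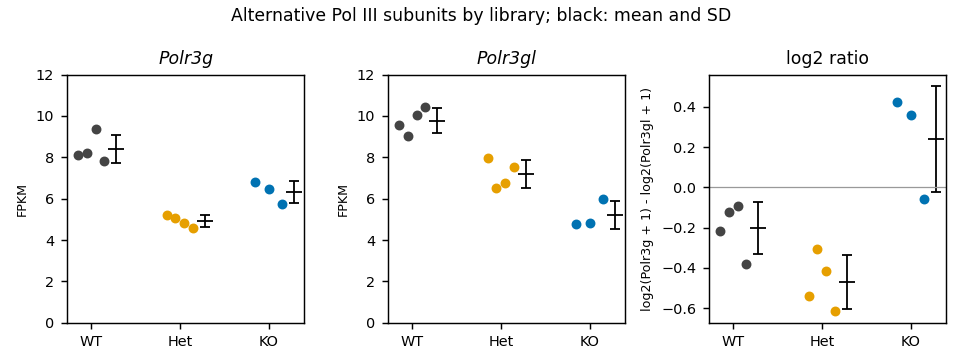
FPKM of Polr3g (left) and Polr3gl (middle) and the log2 ratio of the pair with 1 FPKM added (right), by genotype on the x axis, with a point for each library and the mean and SD in black. KO libraries have the least Polr3gl and the highest ratios, with KO replicate 4 at -0.06 next to the WT library at -0.09.

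Heterozygous cells were not midway between WT and KO for many of these genes, though the share called was near that of all genes. Against the midpoint of KO and WT on the log2 scale, 14 members were called (40%, against 44% of all genes), 3 higher (8.57%, against 21.3%) and 11 lower (31.4%, against 22.8%). Polr1b was higher by 0.47 (SE 0.0578, adjusted p = 7.45e-05), Polr3k by 0.48 (SE 0.0800, adjusted p = 0.000673) and Polr3b by 0.26 (SE 0.0642, adjusted p = 0.00701). Large negative differences were those of Polr3g (-0.49 (SE 0.0670, adjusted p = 0.000178)) and of Rrn3 (-0.47 (SE 0.0709, adjusted p = 0.000328)). Polr1a, Polr1c, Polr1d, Polr1e, Taf1d, Polr2c, Polr2g and Polr2j were also lower than the midpoint. Of these, Polr2j lost the call without scaling, under quantile normalization, under GC correction and without Het replicate 3, and Taf1d without scaling and without Het replicate 3 or 4. Polr3a and Polr3gl, which fell in both mutants, lay near it, at 0.02 (SE 0.0675, adjusted p = 0.822) and 0.00 (SE 0.0778, adjusted p = 0.976). Without scaling the split was 6 higher and 9 lower, and under GC correction it was 8 and 13.

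The other genes of these pathways were read from lists by function. A further 4 subunits have symbols outside the naming rule (Twistnb, Cd3eap, Znrd1 and Crcp). None was called in KO, against 47.1% of all genes, while 2 were lower in Het (50% called, against 43.8%). Znrd1, a polymerase I subunit, had means of 48.7, 37.5 and 46.1 FPKM in WT, Het and KO (adjusted p = 0.000689 between Het and WT), and Crcp, a polymerase III stalk subunit, 36.5, 31.1 and 37.1 (adjusted p = 0.00333). The polymerase I subunits Twistnb and Cd3eap had means of 12.7, 11.2 and 14.4 FPKM and of 12.1, 12.4 and 11 FPKM. Among 16 polymerase I chromatin and nucleolar factors, 6 were lower in KO and none higher (37.5% called, against 47.1% of all genes). Examples were Top1, the topoisomerase that relaxes transcribed DNA (39.4, 35.9 and 27.5 FPKM on average in WT, Het and KO, adjusted p = 0.00069 between KO and WT), and the nucleolar proteins Npm1 (1044, 839 and 793) and Ncl (410.4, 422 and 319.8). Nop56, a protein of the small nucleolar ribonucleoproteins that modify ribosomal RNA, was at 106, 80.1 and 83.6 FPKM. In Het 2 were higher and 3 lower (31.2%, against 43.8%).

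Among 31 polymerase II general transcription factor genes, 5 were higher and 10 lower in KO, and 3 and 11 in Het; the shares called, 48.4% and 45.2%, were near the 47.1% and 43.8% of all genes. Gtf2f2, a TFIIF subunit, was at 26.5, 20.2 and 14.3 FPKM in WT, Het and KO, and Gtf2h2, a TFIIH subunit, at 28.7, 21.9 and 15.9. Another TFIIH subunit, Gtf2h1, was at 15.7, 22.3 and 26.1 FPKM, and the TFIIA subunit Gtf2a1 at 4.92, 7.84 and 8.97. Among 23 pausing and elongation factors, 3 were higher and 9 lower in KO (52.2% called), and 3 and 7 in Het (43.5%), also near the background. Larp7, which binds 7SK RNA and restrains P-TEFb, was at 69.3, 45.0 and 38.3 FPKM. Both subunits of the histone chaperone FACT were lower in KO, Supt16 at 69.8, 55.7 and 43.1 FPKM and Ssrp1 at 205.5, 179 and 134. Among the 3 that were higher was Cdk9, the kinase of P-TEFb, at 26.1, 30.6 and 37.3 FPKM. Among 17 polymerase III initiation factors with the repressor Maf1, 4 were higher and 4 lower in KO (47.1% called, the same share as all genes), and 3 and 2 in Het (29.4%). Snapc2, a subunit of the complex that serves small nuclear RNA promoters, was highest in KO (14.9, 26.0 and 31.3 FPKM) and Gtf3c6, a TFIIIC subunit, lowest there (57.9, 53.6 and 36.9). Of 2 further subunits of the Snapc2 complex, Snapc1 was at 9.22, 10.1 and 14.5 FPKM and Snapc5 at 31.3, 28.9 and 20.6.

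Of 12 factors that assemble or import polymerases, 1 was higher and 1 lower in KO (16.7% called, against 47.1% of all genes), and 4 and 4 in Het (66.7%, against 43.8%). Uri1, a prefoldin-like assembly factor, was at 9.69, 23.7 and 12.4 FPKM in WT, Het and KO. Rpap3, which links assembly to the chaperone HSP90, was at 26.5, 20.9 and 21.5 FPKM. Of the 8 proliferation markers, 6 were lower in KO (Ccnb1 at 151.9, 83.9 and 90.8 FPKM in the 3 groups), and 2 were lower in Het; the shares called were 75% and 25%, against 47.1% and 43.8% of all genes.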

How the data were processed

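The 11 stranded poly(A) RNA libraries of cultured fibroblasts were analysed from the deposited gene tables, 1 for each library. The authors deposited FPKM per gene locus. The submitters' processing notes name TopHat2 2.1.0, Cufflinks 2.2.1, Cuffdiff and the genome GRCm38.p4. Whether counting used strand, and the total counts, are not given in the sources used here.

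FPKM were summed per symbol and scaled by the median of ratios over 13981 genes. Genes with at least 1 FPKM in at least 3 libraries (14948) were fitted with limma 3.58.1 in R 4.3.3 on log2(FPKM + 1), with 1 mean per group over all 11 libraries, a mean-variance trend and Benjamini-Hochberg adjustment over all genes, at a threshold of 0.05. The procedure was tested on simulated data. The Polr3g to Polr3gl ratio was compared by a two-sided exact permutation test.

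The members and gene lists were chosen with earlier results of these data known. Values in every library are given for Polr1a, Polr2a, Polr3a, Polr3g, Polr3gl, Rrn3 and Ubtf and, in each role, for up to 4 members with the largest change relative to WT among those past the threshold; other genes are given by range or count. The lists cover polymerase I chromatin and nucleolar factors, polymerase II general and elongation factors, polymerase III initiation factors, assembly factors, mitochondrial transcription, proliferation and cell type markers. Alternatives were other scaling, pseudocounts, filters, fits and each library left out; the correction for transcript GC content (lowess, span 0.3, on GENCODE M21 transcripts, found for 92.2% of genes and all 35 members) was chosen after seeing the data. Promoters came from RefSeq (GRCm38.p6).

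A member of the set enters the counts, medians and sums, and its own values are not reported here.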

Additional observations from a re-analysis of the deposited data

Results flagged for a closer look

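The Polr2j level of Het replicate 3 stood apart from the other Het libraries: it was 102 FPKM against 110.5 to 112 in the other 3. The gap to the nearest library was 0.8291 of the whole range on the log2(FPKM + 1) scale, just above Dixon's critical value for 4 samples. It was the 1 such group among 70 tested (35 genes in WT and in Het), and chance alone gives about 1 in 20. Without Het replicate 3, Polr2j was no longer called between Het and WT.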

How the results depend on the processing

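Of 2901 recomputed differences of members, 2760 kept their side of the threshold, 64 lost it and 77 gained it, and the causes were not tested. The sign changed in 68, none of them called before or after. The count of higher members was the least stable. Between KO and WT it was 3, and 0 without scaling and 0 with only the 2 groups compared; with each library left out it ran from 0 to 3, with 0 without KO replicate 3 or KO replicate 4. Between Het and WT it was 2, and 7 with the correction for GC content, and with each library left out it ran from 1 to 5, with 5 without WT replicate 4 and 1 without Het replicate 1 or 2. For Het against the midpoint it was 3, and 6 without scaling and 8 with the correction for GC content, and with each library left out it ran from 3 to 5, with 5 without WT replicate 4. Without scaling, higher genes made up 37.1% of all calls between KO and WT (49.4% with it), 36.5% between KO and Het (49.8%) and 57.7% for Het against the midpoint (48.3%). Among members, higher calls were 0% without scaling between KO and WT (18.8% with it) and 40% for Het against the midpoint (21.4%). Under GC correction they were 26.9% in Het (10.5% without) and 38.1% for the midpoint.

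With no filter on low values, 46469 symbols were tested and 23.8% were called between KO and WT. With each library left out, the difference between groups in the log2 ratio of Polr3g to Polr3gl kept its direction. It ran from 0.35 to 0.59 for KO against WT and from 0.62 to 0.86 for KO against Het. The number of libraries then does not allow a p under 0.05.

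Same-numbered libraries of different genotypes had correlations of their deviations from -0.101 to 0.352, over 0.1 in 5 of 10 pairs. Pairs with different numbers ran from -0.398 to 0.18, so the highest correlations were between same-numbered libraries. Of 11 libraries, 6 correlated best with their own number. The labels state no pairing and the main fit did not use the numbers, and whether same-numbered libraries share a batch was not tested. With the replicate number as a block, 2 members were higher and 13 lower between KO and WT, 4 higher and 18 lower between Het and WT, 6 higher and 7 lower between KO and Het, and 4 higher and 12 lower against the midpoint. Not called with the block were Polr2h between KO and WT and Polr2a and Polr2d between KO and Het.

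Absolute depth is unknown, so counting error could not be separated from other spread. The confidence limits in the authors' tables lay 3.07% of the value to each side for Polr2a and 24.0% for Polr2i (medians over libraries). For Polr3g and Polr3gl, whose ratio was tested, the medians were 15.7% and 23.0%, and the widest limits in any library 18.2% and 37.0%.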

Other observations

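Mitochondrial transcription, which uses a separate polymerase, was read from 6 genes. In KO, 2 were higher and 1 lower than in WT (50% called, near the 47.1% of all genes), and in Het 2 were higher (33.3%, against 43.8%). Tfb2m, the mitochondrial initiation factor, had means of 16.2 FPKM in WT, 14.3 in Het and 11.1 in KO (limma adjusted p = 0.00326 between KO and WT). Mterf1a and Mterf1b, which are paralogs with uncertain counts where reads match both, had means of 1.85, 2.70 and 3.13 FPKM and of 1.33, 1.99 and 2.12 FPKM.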
